A study of Mus musculus with 16 samples.

Results

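The genes described here encode stress-response regulators and metabolic enzymes that are known from wasting muscle: the 3 Gadd45 genes (*Gadd45a*, *Gadd45b* and *Gadd45g*), the cell-cycle inhibitor gene *Cdkn1a* (p21), the AMP deaminase genes *Ampd1* and *Ampd3*, and the MAP kinase phosphatase genes *Dusp1* and *Dusp4*. They were chosen by symbol, and all 8 were found among the 24421 genes of both count tables. All 8 had enough reads to be tested in every comparison.

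Gadd45 proteins are small stress sensors that bind and activate a MAP kinase kinase kinase, MAP3K4, and so feed into the p38 and JNK pathways. In skeletal muscle, *Gadd45a* is a classic gene of denervation, fasting and immobilization, and is a target of the transcription factor ATF4. *Cdkn1a* blocks cyclin-dependent kinases and is also induced in atrophying fibers. AMP deaminase converts AMP to IMP. AMPD1 is the muscle form, which is most abundant in fast fibers, and AMPD3 is the form first described in red blood cells, whose gene is induced in many kinds of muscle wasting. *Dusp1* and *Dusp4* encode nuclear phosphatases that switch MAP kinases off, and *Dusp1* is both an immediate-early gene and a glucocorticoid target.

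Gastrocnemius (Gas), a muscle made mostly of fast fibers, and soleus (Sol), which is rich in slow fibers, came from male C57BL/6 mice that were 8 weeks old. LSD1-mKO mice carry *Lsd1* flox/flox and a CreERT2 recombinase under the human ACTA1 promoter, which is active in muscle fibers, so the other cells of the tissue keep *Lsd1* (in the files *Kdm1a*), which encodes a histone demethylase. WT mice carry the floxed *Lsd1* alleles without CreERT2. Both genotypes were given tamoxifen (75 mg/kg, 5 days) and then, starting before its last dose, the synthetic glucocorticoid dexamethasone (Dex; 1 mg/kg, 7 days). No untreated muscle enters any comparison, so no value here is a response to Dex itself. There were 16 libraries, with 3 of WT and 5 of LSD1-mKO from each muscle. The labels do not say that every library came from a separate mouse, so the p-values measure the spread between these libraries.

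The libraries held from 10130415 to 24576377 reads assigned to genes. *Kdm1a* was lower in LSD1-mKO, with a log2 fold change of -1.56 for Gas (adjusted p = 0.0177) and -1.66 for Sol (adjusted p = 0.000574), and the 2 genotypes did not overlap in either muscle. Slow fiber markers summed to between 1153 and 2756 CPM in the Gas libraries and between 24079 and 33799.8 in the Sol libraries (CPM, a gene's reads relative to the TMM-scaled library total). For fast fiber markers the sums were 137177 to 230346 CPM over Gas libraries, with 29122 to 62249 CPM over Sol libraries. The libraries thus carry the markers of their labeled muscles. The mean log2 CPM of ribosomal protein genes was 8.34 in WT Gas replicate 3 and 7.60 in LSD1-mKO Gas replicate 5. For Sol it was 7.0 in WT replicate 2. These stand against 6.81 to 7.15 in the other Gas and 6.15 to 6.58 in the other Sol libraries. Results that these 3 libraries bear on are given with and without them.

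The start regions of the Gadd45 genes and of *Dusp1* are shown because the levels of these genes correlated from library to library, positively among the Gadd45 genes and negatively with *Dusp1*. RefSeq (GRCm38.p6) gave start regions, from 250 bases before to 50 bases after the start, for 6 of the 8 genes, with 2 for *Cdkn1a* and 3 for *Ampd3*. Capitals mark matches, on either strand, to 7 motifs searched by their letters, and each sequence runs 5′ to 3′ on the strand of its gene. *Gadd45a* is at chr6:67037358-67037657 (minus strand), *Gadd45b* at chr10:80929841-80930140 (plus), *Gadd45g* at chr13:51846425-51846724 (plus) and *Dusp1* at chr17:26508423-26508722 (minus).
*Gadd45a*: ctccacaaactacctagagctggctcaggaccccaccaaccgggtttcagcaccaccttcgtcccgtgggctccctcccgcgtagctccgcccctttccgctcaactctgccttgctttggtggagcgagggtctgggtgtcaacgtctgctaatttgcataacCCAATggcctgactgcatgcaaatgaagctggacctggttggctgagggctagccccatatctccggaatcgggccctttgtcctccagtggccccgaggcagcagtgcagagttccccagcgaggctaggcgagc
*Gadd45b*: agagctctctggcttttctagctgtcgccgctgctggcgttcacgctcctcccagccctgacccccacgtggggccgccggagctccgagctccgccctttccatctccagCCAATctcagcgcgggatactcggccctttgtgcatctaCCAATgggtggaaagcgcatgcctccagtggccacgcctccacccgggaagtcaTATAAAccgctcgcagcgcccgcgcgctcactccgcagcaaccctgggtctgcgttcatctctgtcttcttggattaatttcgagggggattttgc
*Gadd45g*: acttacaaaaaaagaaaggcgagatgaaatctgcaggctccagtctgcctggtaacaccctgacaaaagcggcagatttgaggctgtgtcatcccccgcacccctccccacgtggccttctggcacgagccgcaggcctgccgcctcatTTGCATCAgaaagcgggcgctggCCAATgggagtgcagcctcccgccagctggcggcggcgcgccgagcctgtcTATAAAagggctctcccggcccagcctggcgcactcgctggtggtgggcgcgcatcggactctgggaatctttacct
*Dusp1*: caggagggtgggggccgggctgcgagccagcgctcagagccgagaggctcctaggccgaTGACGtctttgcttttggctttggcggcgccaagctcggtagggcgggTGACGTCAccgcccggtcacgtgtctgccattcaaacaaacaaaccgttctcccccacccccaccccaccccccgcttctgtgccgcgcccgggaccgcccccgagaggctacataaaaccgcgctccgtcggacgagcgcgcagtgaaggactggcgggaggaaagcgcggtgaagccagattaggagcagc
The CCAAT box (CCAAT) was found in all 3 Gadd45 regions, starting 86 bases before the start of *Gadd45a*, 139 and 100 bases before that of *Gadd45b* and 78 bases before that of *Gadd45g*. It occurs in 37.4% of the 32851 start regions of this length. A TATA box (TATAAA, in 13.6% of regions) began 46 bases before the start of *Gadd45b* and 27 before that of *Gadd45g*, and was not matched in *Gadd45a*. The amino acid response element, searched as TTGCATCA (0.895% of regions), was matched once, in *Gadd45g*, 101 bases before the start. The *Dusp1* region held none of these 3 and instead a cyclic AMP response element (CRE, TGACGTCA, in 1.79% of regions) 143 bases before the start, plus a CRE half-site (TGACG, in 20.8%) 191 bases before it. Both strands of the full CRE also match the half-site, so those matches overlap. The forkhead motif GTAAACA (3.65% of regions) and the glucocorticoid response element (0.475%) were matched in none of the 9 regions of the 6 genes. Only these letters were searched, so variant forms of a motif are not covered, such as ATAAACA, which is in the second *Ampd3* region. The *Ampd3* regions held a CCAAT box in 2 of 3, and the 2 *Cdkn1a* regions held no match to the 7 motifs. A p53 site was not among the motifs searched. A match is a description of the letters and not evidence of binding, and a missing match is not evidence against it. The study reported a motif of the forkhead factor Foxk1 in promoters of its atrophy genes, searched over a longer window. It also reported Foxk1 at the *Gadd45a* promoter in cultured myotubes.

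Across genotypes, *Ampd3* was the 1 gene of the 8 without overlap in Gas. It was higher in all 5 LSD1-mKO Gas libraries than in all 3 WT Gas libraries, by 2.92-fold, but neither it nor any of the other 7 genes passed the test over all genes in either muscle. In Gas, 0 of 8 genes were called by edgeR's quasi-likelihood test (adjusted p under 0.05), and 4 of the 13040 genes tested (0.0307%) were. DESeq2 called 1 of the 8, *Ampd3*, and the edgeR exact test called 0. At an unadjusted p under 0.05 there were 2 of 8, *Ampd1* and *Ampd3*, beside 9.06% of all genes, and genotypes that did not overlap were found for 1 of 8, *Ampd3*, beside 6.95%. In Sol, 0 of 8 were called beside 0.967% of the 13342 genes tested, and DESeq2 and the exact test also called 0. There, 4 of 8 had an unadjusted p under 0.05, beside 15.5% of all genes: *Gadd45b* and *Cdkn1a*, which were lower in LSD1-mKO, and *Ampd1* and *Ampd3*, which were higher. No gene of the 8 had non-overlapping genotypes in Sol, beside 10.8% of all genes. The median log2 fold change of the 8 was 0.53 in Gas and 0.07 in Sol, against 0.01 and -0.01 over all genes tested. Beside the Gas values, the 6 fibroblast markers summed to between 872 and 1110.0 CPM in LSD1-mKO Gas and between 1406 and 1962 CPM in WT Gas without overlap, with 6 of 6 lower, 2 at an unadjusted p under 0.05, 0 called and none at 0 in a library. The 5 satellite cell markers also summed without overlap, to between 75.6 and 97.0 CPM in LSD1-mKO Gas and between 102 and 117 CPM in WT Gas. Of these 5, 2 were lower and 3 higher in LSD1-mKO Gas, with 1 lower at an unadjusted p under 0.05 and 0 called. The part of either cell type in the Gas differences was not tested. In Sol the fibroblast sums overlapped (609 to 2042 CPM in LSD1-mKO and 943 to 1557 CPM in WT), and so did the satellite cell sums. Since each library is RNA of a whole muscle, fewer cells of a type and less RNA per cell cannot be told apart in any of these values. *Gadd45a*, *Ampd3* and *Dusp4* were among the atrophy genes that the study picked with these libraries in view. Their directions here are thus not independent evidence. The study, also with edgeR, called many more genes between the genotypes in Gas than the quasi-likelihood test did here. It reported atrophy genes among those that rose, and its methods do not name the edgeR test. Over all genes in Gas, the count here depended on the test: 4 by quasi-likelihood, 104 by the exact test and 132 by DESeq2. For *Gadd45a* the study also reported a rise in LSD1-mKO Gas by quantitative RT-PCR in larger groups of mice. It reported more trimethylated histone H3 lysine 4 at the promoter of *Gadd45a* there as well. Whether those mice include the ones of these libraries is not stated.

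The difference of the genotype effect between the muscles was called for 0 of the 8 genes and 0% of the 13749 genes tested with all 16 libraries. None of the 8 had an unadjusted p under 0.05 (range 0.0883 to 0.49), beside 4.88% of all genes, and DESeq2 also called 0 of the 8. The fitted difference, Sol minus Gas, was negative for 7 genes, from -0.42 for *Ampd1* to -1.55 for *Dusp4*, and positive for *Dusp1* (0.73). These sizes moved with single libraries: without LSD1-mKO Gas replicate 3 the value was -0.30 for *Dusp4*, -0.49 for *Ampd3* (from -0.92) and -0.56 for *Gadd45a* (from -1.23), without LSD1-mKO Gas replicate 1 it was -0.22 for *Ampd1*, and without WT Gas replicate 2 it was 0.24 for *Dusp1*. For *Gadd45a* it was -0.55 without WT Sol replicate 2. For *Gadd45b* it turned positive with WT Sol replicate 2 left out (0.64), and for *Gadd45g* it then came to 0.089.

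**Figure D1:**
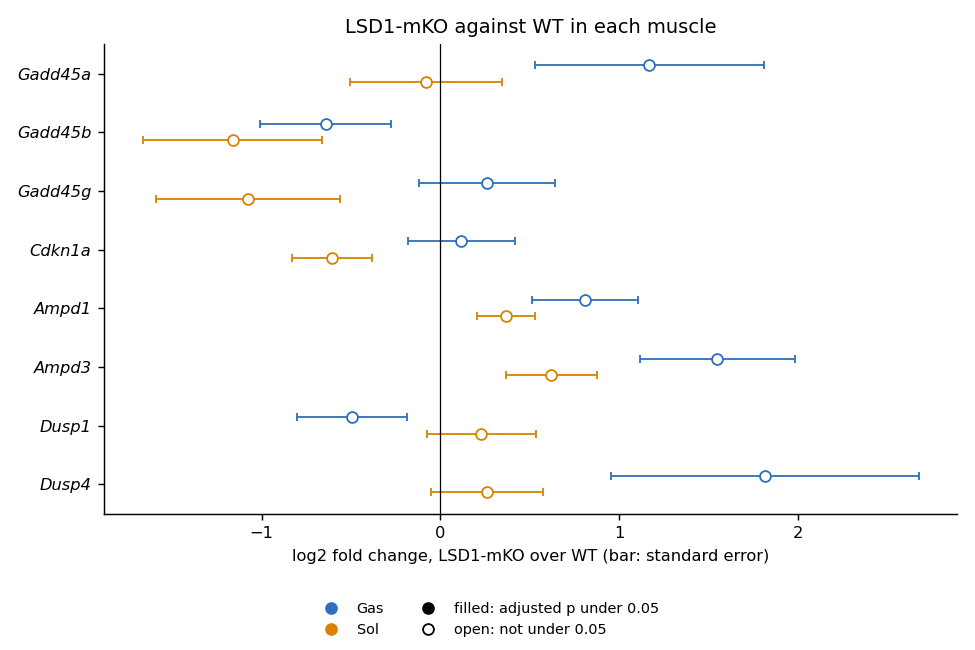
Log2 fold change of LSD1-mKO over WT (horizontal axis) for each of the 8 genes, in Gas (blue) and Sol (orange), with bars of 1 standard error from edgeR. All symbols are open because no adjusted p was under 0.05, and *Dusp4* in Gas (1.81) and *Ampd3* in Gas (1.55) lie farthest to the right.

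More of the 8 genes were called between the muscles than between the genotypes. In WT, 3 of 8 genes were called between Sol and Gas, beside 17% of the 13749 genes tested: *Gadd45a* and *Ampd1* were lower and *Ampd3* was higher in Sol. These 3 did not overlap between the muscles, and 30.3% of all genes did not. In LSD1-mKO, 6 of 8 were called, beside 24.5% of all genes: *Gadd45a*, *Gadd45b*, *Gadd45g* and *Ampd1* were lower and *Ampd3* and *Dusp1* were higher in Sol. The muscles did not overlap for 3 of the 8, *Gadd45a*, *Gadd45g* and *Ampd1*, beside 20.9% of all genes. *Cdkn1a* and *Dusp4* were called in neither genotype. A call in one genotype and not in the other is no difference between the genotypes, which was tested above. The muscles were deposited in separate tables, so a difference of handling between the tables and a difference of muscle cannot be told apart.

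**Figure D2:**
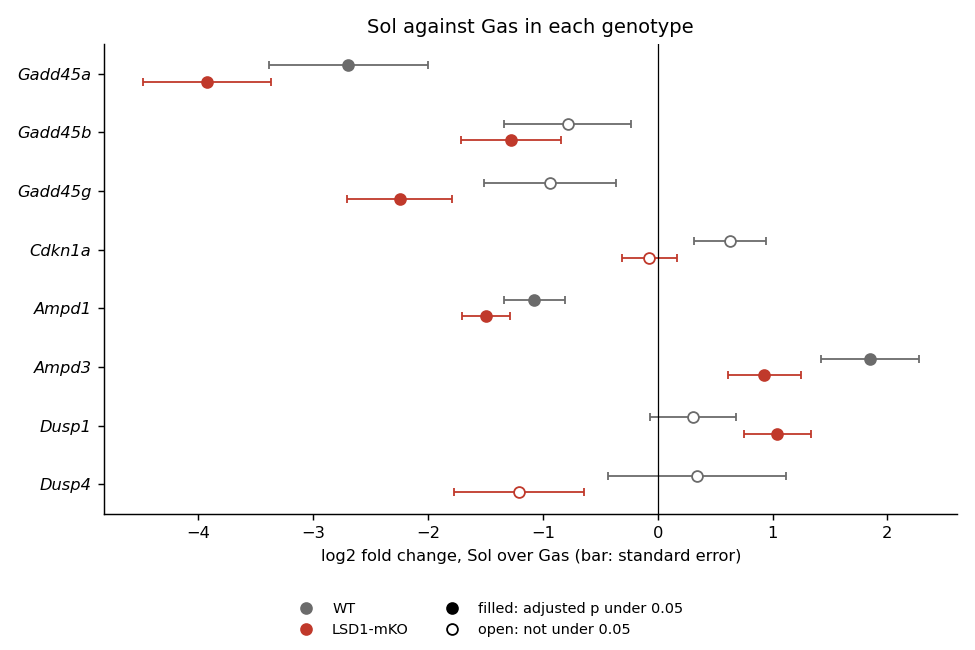
Log2 fold change of Sol over Gas (horizontal axis) for each of the 8 genes, in WT (gray) and LSD1-mKO (red), with bars of 1 standard error from edgeR. Filled symbols mark the 3 WT and 6 LSD1-mKO values with an adjusted p under 0.05, and *Gadd45a* lies farthest to the left at -2.70 in WT and -3.92 in LSD1-mKO.

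**Figure D3:**
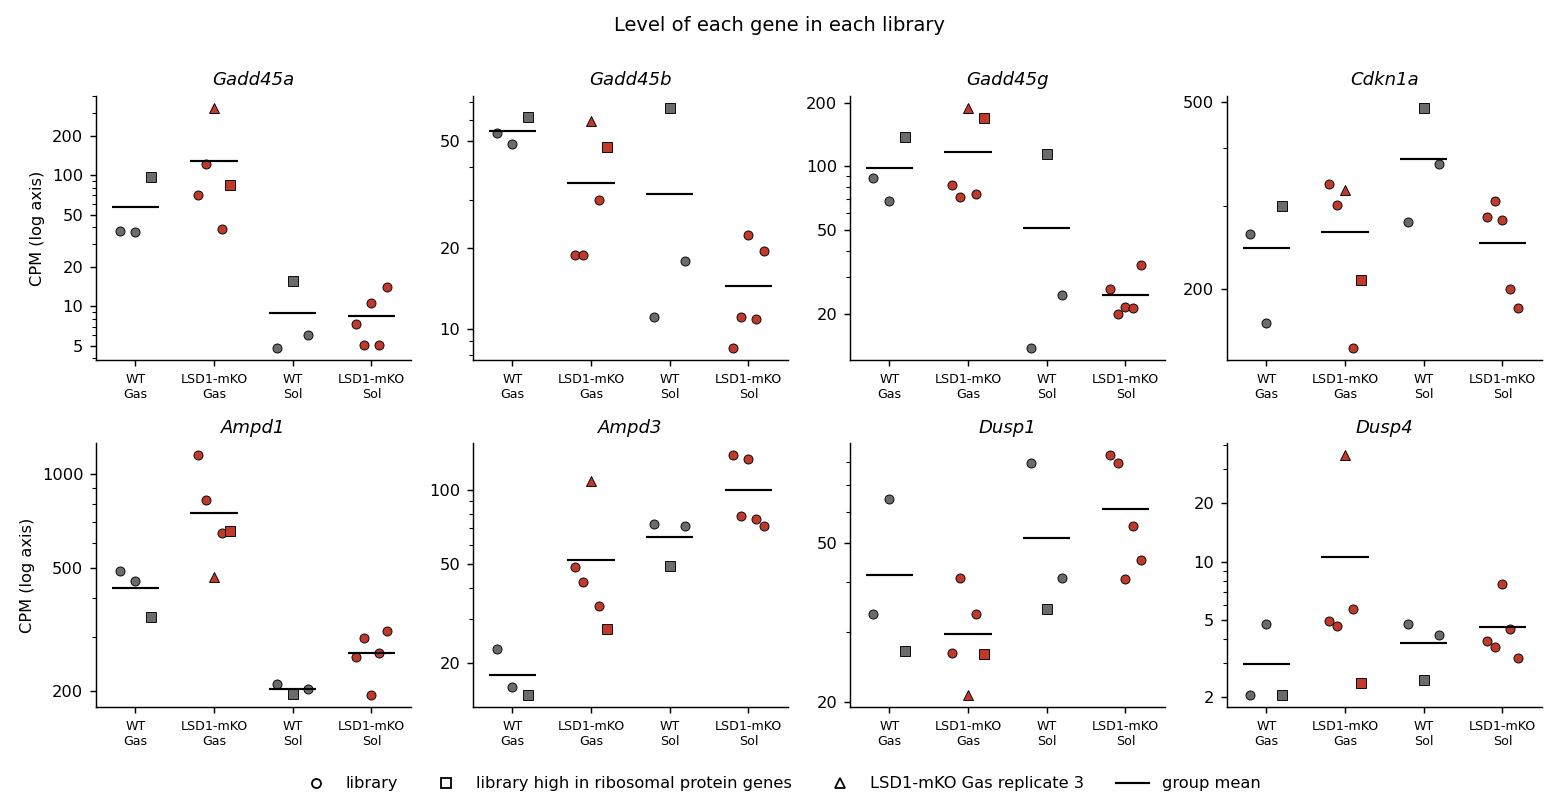
CPM of each gene on a log axis (vertical) in each library of the 4 groups (horizontal), with a line at the group mean. Squares are the 3 libraries high in ribosomal protein genes and the triangle is LSD1-mKO Gas replicate 3, which is the highest of its group for *Gadd45a*, *Gadd45b*, *Gadd45g*, *Ampd3* and *Dusp4*.

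Set per kilobase of exon, so that genes can be compared, *Ampd1* had the highest mean level of the 8 in Gas. It was 147 ± 24.8 CPM per kb in WT (SD, n = 3) and 256 ± 87.5 in LSD1-mKO (n = 5). Its range overlapped that of other genes: its lowest library was at 119 in WT Gas, where *Gadd45g* reached 128. In LSD1-mKO Gas its lowest was at 160, where *Gadd45a* reached 267. In Sol, *Cdkn1a* had the highest mean, with 139 ± 38.4 in WT, where its lowest library was at 102 and *Gadd45g* reached 107. In LSD1-mKO Sol it was 92.5 ± 20.7, and *Ampd1* at 90.6 ± 15.6 did not differ from it beyond the spread. *Dusp4* had the lowest mean level in every group, from 1.08 ± 0.579 CPM per kb in WT Gas to 3.88 ± 5.08 in LSD1-mKO Gas. Among the Gadd45 genes, *Gadd45g* had the highest mean per kb. In WT Gas (91.7 ± 33.2, with 46.7 ± 28.5 for *Gadd45a*) it did not differ from the next beyond the spread. Nor did it in LSD1-mKO Gas (109.6 ± 53.3, with 105 ± 93.7 for *Gadd45a*) or WT Sol (47.8 ± 51.8, with 23.1 ± 22.0 for *Gadd45b*). *Gadd45a* ranked 4 of 8 in WT Gas (46.7 ± 28.5) and next to last in WT Sol (7.23 ± 4.85).

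*Gadd45a* (chr6:67035096-67037457 in GRCm38, minus strand), whose product drives fiber atrophy when raised, was a gene of Gas in these libraries. In WT Gas its level was 37.3, 36.8 and 97.4 CPM in replicates 1 to 3, and in LSD1-mKO Gas it was 71.0, 121, 326, 38.6 and 83.5 CPM in replicates 1 to 5. In WT Sol it was 4.81, 15.7 and 6.07 CPM, and in LSD1-mKO Sol 7.37, 5.06, 10.6, 5.07 and 14.1 CPM. Every Gas library was above every Sol library, while within each muscle the genotypes overlapped. The highest library of each WT group was the one high in ribosomal protein genes. The log2 fold change of Sol over Gas was -2.70 ± 0.69 in WT (SE; adjusted p = 0.0134) and -3.92 ± 0.56 in LSD1-mKO (adjusted p = 8.27e-05). In WT this call was lost without WT Gas replicate 3 (adjusted p = 0.0578), WT Sol replicate 1 (0.0772) or WT Sol replicate 3 (0.0721), and it held with the 3 high ribosomal protein libraries left out together (-2.79, adjusted p = 0.0226). LSD1-mKO over WT was 1.17 ± 0.64 in Gas (adjusted p = 0.566) and ranged from 0.47 without LSD1-mKO Gas replicate 3 to 1.80 without WT Gas replicate 3, and was 1.92 with the 3 high ribosomal protein libraries left out (adjusted p = 0.378). In Sol it was -0.08 ± 0.43 (adjusted p = 0.954), and it turned to 0.63 when WT Sol replicate 2 was left out, and to 0.051 or 0.074 when replicate 2 or replicate 4 of LSD1-mKO Sol was. The exons of *Gadd45a* overlap those of *E230016M11Rik* on the opposite strand, and the counting names no strand, so reads of the 2 cannot be told apart.

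*Gadd45b* (chr10:80930073-80932204, plus strand), a Gadd45 gene known as an early response to cytokines and stress, was the one gene of the family whose mean was lower in LSD1-mKO in both muscles. Its level was 53.3, 48.9 and 61.5 CPM in WT Gas and 18.8, 18.8, 59.5, 30.1 and 47.6 CPM in LSD1-mKO Gas. It was 11.0, 66.4 and 17.9 CPM in WT Sol and 8.47, 11.1, 22.2, 10.8 and 19.5 CPM in LSD1-mKO Sol. The 3 WT Gas libraries lay close together, the LSD1-mKO Gas libraries spread from below them to within their range, and the WT Sol mean rested on replicate 2, which is high in ribosomal protein genes. The log2 fold change of LSD1-mKO over WT was -0.64 ± 0.36 in Gas (adjusted p = 0.572). In Sol it was -1.16 ± 0.50 (unadjusted p = 0.0403, adjusted p = 0.296) and came to -0.0075 without WT Sol replicate 2. Sol over Gas was -0.78 ± 0.56 in WT (adjusted p = 0.351) and -1.28 ± 0.44 in LSD1-mKO (adjusted p = 0.0417). Without WT Sol replicate 2 the WT value was -1.91 and was called (adjusted p = 0.0148). The LSD1-mKO call was lost, with adjusted p from 0.0502 to 0.104, when replicate 3, 4 or 5 of LSD1-mKO Gas or replicate 1, 2 or 4 of LSD1-mKO Sol was left out.

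*Gadd45g* (chr13:51846678-51848468, plus strand), the third member of the family, followed *Gadd45b* in the libraries that stood apart. Its level was 88.5, 68.5 and 138 CPM in WT Gas, with 82.0, 72.0, 189, 74.2 and 169 CPM in LSD1-mKO Gas. In WT Sol it was 13.8, 115 and 24.8 CPM, and in LSD1-mKO Sol 26.4, 20.1, 21.5, 21.3 and 34.1 CPM. All 5 LSD1-mKO Sol libraries were below all 5 LSD1-mKO Gas libraries, whereas WT Sol replicate 2 lay within the Gas range. Sol over Gas in LSD1-mKO was -2.25 ± 0.46 (adjusted p = 0.00183), a call that held with each library left out in turn. In WT it was -0.94 ± 0.57 (adjusted p = 0.276), and -2.33 without WT Sol replicate 2 (adjusted p = 0.00276). LSD1-mKO over WT was 0.26 ± 0.38 in Gas (adjusted p = 0.803). In Sol it was -1.08 ± 0.52 (adjusted p = 0.351) and turned to 0.35 without WT Sol replicate 2.

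*Cdkn1a* (chr17:29090976-29100727, plus strand), the gene of the CDK inhibitor p21, had similar means in 3 of the 4 groups. Its level was 263, 169 and 301 CPM in WT Gas and ran from 149.8 to 335 CPM in LSD1-mKO Gas (mean 264 ± 81.0, SD, n = 5). It was 279, 487 and 370 CPM in WT Sol and from 182 to 308 CPM in LSD1-mKO Sol (251 ± 56.2). The groups overlapped, and WT Sol replicates 2 and 3 were above every library of the other groups. LSD1-mKO over WT was 0.12 ± 0.30 in Gas (adjusted p = 0.892), and -0.06 without WT Gas replicate 2. In Sol it was -0.61 ± 0.22 (unadjusted p = 0.0203, adjusted p = 0.231), and -0.37 without WT Sol replicate 2 (adjusted p = 0.477). Sol over Gas was 0.63 ± 0.31 in WT (adjusted p = 0.174) and -0.07 ± 0.24 in LSD1-mKO (adjusted p = 0.857), and the latter turned to 0.03 without LSD1-mKO Gas replicate 1 and to 0.02 without LSD1-mKO Sol replicate 5. Its exons overlap *AC167363.2* on the opposite strand.

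*Ampd1* (chr3:103074014-103099720, plus strand), the AMP deaminase of fast fibers, and *Ampd3* (chr7:110768206-110812405, plus strand) had opposite muscle patterns and the same genotype direction. *Ampd1* was at 487, 453 and 348 CPM in WT Gas and at 1148, 824, 468, 648 and 655 CPM in LSD1-mKO Gas. It was at 212, 196 and 203 CPM in WT Sol and at 257, 296, 194, 265 and 313 CPM in LSD1-mKO Sol. In Gas 4 of the 5 LSD1-mKO libraries were above all WT libraries, replicate 3 being the exception, and in Sol 4 of 5 were, again with replicate 3 below. LSD1-mKO over WT was 0.81 ± 0.30 in Gas (unadjusted p = 0.0207, adjusted p = 0.494) and 0.37 ± 0.16 in Sol (unadjusted p = 0.0433, adjusted p = 0.307). Sol over Gas was -1.08 ± 0.27 in WT (adjusted p = 0.0109) and -1.50 ± 0.21 in LSD1-mKO (adjusted p = 6.72e-05). The WT call was lost without WT Sol replicate 3 (-1.07, adjusted p = 0.0516), and the LSD1-mKO call held with each library left out. Beside the Gas values of *Ampd1*, 5 of the 10 fast fiber markers had an unadjusted p under 0.05 and were lower in LSD1-mKO Gas, 0 were called, and the median of the 10 was -0.79. All 8 slow fiber markers were higher in LSD1-mKO Gas, with 2 at an unadjusted p under 0.05, 0 called and a median of 0.44. The part of a change of fiber type in the values of *Ampd1* and *Ampd3* was not tested.

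*Ampd3* was at 22.8, 15.9 and 14.7 CPM in WT Gas, and at 48.6, 42.4, 109, 33.8 and 27.2 CPM in LSD1-mKO Gas. It was at 72.6, 49.1 and 71.1 CPM in WT Sol, and at 138, 78.5, 133, 76.1 and 71.2 CPM in LSD1-mKO Sol. The 3 WT Gas libraries were the lowest of the 16, and replicates 1 and 3 of LSD1-mKO Sol were the highest. LSD1-mKO over WT was 1.55 ± 0.43 in Gas (unadjusted p = 0.00483, adjusted p = 0.398), ranged from 1.10 without LSD1-mKO Gas replicate 3 to 1.77 with each library left out, and was called only by DESeq2 (1.54, adjusted p = 0.0371). In Sol it was 0.62 ± 0.26 (unadjusted p = 0.033, adjusted p = 0.273). Sol over Gas was 1.85 ± 0.43 in WT (adjusted p = 0.00678), a call that held with each library left out. In LSD1-mKO it was 0.93 ± 0.32 (adjusted p = 0.0423). That call was lost without replicate 1, 2, 4 or 5 of LSD1-mKO Gas, replicate 1, 2, 3 or 4 of LSD1-mKO Sol, or replicate 1 or 3 of WT Sol, with adjusted p from 0.0518 to 0.123, and with the 3 high ribosomal protein libraries left out (0.76, adjusted p = 0.0826) or only the LSD1-mKO libraries in the fit (0.92, adjusted p = 0.0579). Exons of *Ampd3* overlap *B430319F04Rik* on the opposite strand and *Gm47282* on the same strand.

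The balance of the 2 AMP deaminase genes leaned toward *Ampd3* in Sol, with 1 Gas library inside the Sol range and no muscle comparison past the threshold after adjustment. *Ampd3* had 4.68, 3.51 and 4.24 reads per 100 *Ampd1* reads in WT Gas and 34.2, 25.1 and 35.0 in WT Sol. In LSD1-mKO Gas it had 4.24, 5.14, 23.3, 5.22 and 4.16, and in LSD1-mKO Sol 53.6, 26.5, 68.7, 28.7 and 22.7. All Gas libraries but 1 were at 5.22 or below, and LSD1-mKO Gas replicate 3 reached the range of Sol. The genotypes overlapped in both muscles, and in an exact permutation test (two-sided, on the log2 ratio) LSD1-mKO was 1.56-fold WT in Gas (p = 0.179) and 1.17-fold in Sol (p = 0.643). Sol was 5.66-fold Gas in LSD1-mKO (exact permutation p = 0.0159, and 0.0635 adjusted over the 4 comparisons of this ratio). That test takes the libraries as independent. With the Gas and Sol libraries of the same number as pairs, Sol was higher in 5 of 5 pairs, and the exact sign-flip p was 0.0625, the smallest that 5 pairs can give. In WT it was 7.56-fold, where the exact permutation p of 0.1 is the smallest that 3 against 3 libraries can give.

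**Figure D4:**
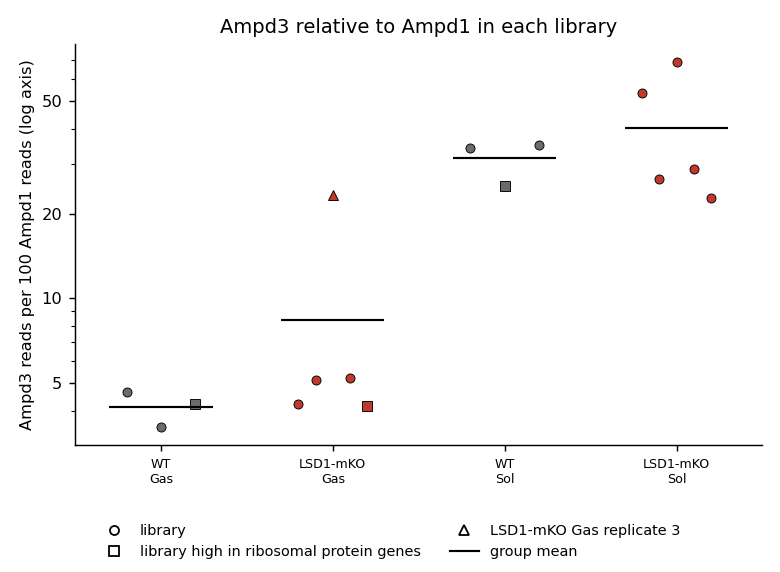
*Ampd3* reads per 100 *Ampd1* reads on a log axis (vertical) in each library of the 4 groups (horizontal), with a line at the group mean, squares for the 3 libraries high in ribosomal protein genes and a triangle for LSD1-mKO Gas replicate 3. The triangle, at 23.3, lies among the Sol libraries (22.7 to 68.7), and the other Gas libraries lie between 3.51 and 5.22.

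*Dusp1* (chr17:26505590-26562128, minus strand), whose product dephosphorylates p38 and JNK, had its lowest values in LSD1-mKO Gas. This span is that of GENCODE M21, and the RefSeq start region shown above (chr17:26508423-26508722) lies inside it and not at its end. Its level was 33.2, 64.7 and 26.7 CPM in WT Gas and 26.6, 40.9, 20.7, 33.2 and 26.4 CPM in LSD1-mKO Gas. It was 79.8, 34.1 and 40.9 CPM in WT Sol and 83.2, 79.7, 40.7, 55.3 and 45.4 CPM in LSD1-mKO Sol. Between LSD1-mKO Gas and LSD1-mKO Sol the ranges met at 40.9 and 40.7 CPM. Sol over Gas in LSD1-mKO was 1.04 ± 0.29 (adjusted p = 0.0153), and the call was lost without LSD1-mKO Sol replicate 1 (adjusted p = 0.0535) or 2 (0.0520). In WT it was 0.31 ± 0.37 (adjusted p = 0.606), and -0.16 without WT Sol replicate 1. LSD1-mKO over WT was -0.49 ± 0.31 in Gas (adjusted p = 0.596) and 0.0041 without WT Gas replicate 2, the highest WT Gas library. In Sol it was 0.23 ± 0.30 (adjusted p = 0.777), and 0.01 without WT Sol replicate 2.

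*Dusp4* (chr8:34807297-34819894, plus strand), a nuclear phosphatase of ERK, JNK and p38, was at low levels with 1 exception. It was at 2.04, 4.79 and 2.04 CPM in WT Gas and at 4.96, 4.68, 35.4, 5.72 and 2.35 CPM in LSD1-mKO Gas. It was at 4.76, 2.46 and 4.17 CPM in WT Sol and at 3.91, 3.65, 7.64, 4.49 and 3.20 CPM in LSD1-mKO Sol. These levels stand for 18 to 499 reads in Gas and 35 to 179 reads in Sol. Replicate 3 was the highest library of LSD1-mKO in both muscles, and all other values lay between 2.04 and 5.72 CPM. LSD1-mKO over WT in Gas was 1.81 ± 0.86 (adjusted p = 0.555) and 0.56 without LSD1-mKO Gas replicate 3. The Sol value was 0.26 ± 0.31 (adjusted p = 0.750), and -0.0065 without LSD1-mKO Sol replicate 3. Sol over Gas was 0.34 ± 0.78 in WT (adjusted p = 0.796) and -1.20 ± 0.57 in LSD1-mKO (adjusted p = 0.131), where it turned to 0.04 without LSD1-mKO Gas replicate 3.

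Within the groups, the Gadd45 genes correlated positively with each other and negatively with *Dusp1*, the pairs with *Gadd45a* the least. After the mean of each of the 4 groups was taken off the log2 CPM, *Gadd45b* and *Gadd45g* had a Pearson r of 0.86 over the 16 libraries (0.72 with the 2 libraries farthest from the median of *Gadd45b* left out). *Gadd45a* had an r of 0.71 with *Gadd45g* and of 0.65 with *Gadd45b*, which were 0.58 and 0.42 with the 2 libraries farthest in *Gadd45a* left out. *Dusp1* had an r of -0.60 with *Gadd45a*, -0.72 with *Gadd45b* and -0.67 with *Gadd45g*, and -0.49, -0.67 and -0.56 with the 2 farthest libraries left out. These are descriptions over libraries in which every gene shares the depth and composition of its library, and the 3 with high ribosomal protein levels were above their group mean for all 3 Gadd45 genes except *Gadd45a* in LSD1-mKO Gas replicate 5, and below it for *Dusp1*. The r values were not computed with those 3 libraries left out together. *Ampd3* and *Dusp4* had an r of 0.79, which was 0.47 without LSD1-mKO Gas replicate 3. *Ampd1* and *Ampd3* had an r of -0.36, and 0.13 without that library.

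**Figure D5:**
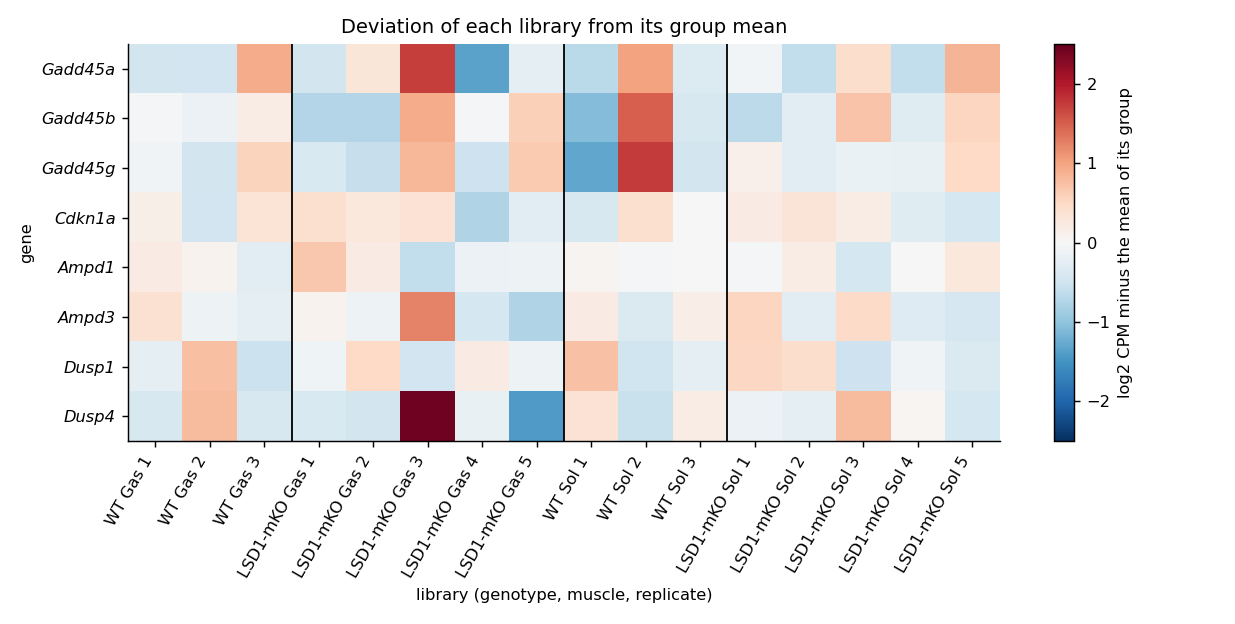
Deviation of each library (columns, 16 libraries in 4 groups) from the mean log2 CPM of its group for each of the 8 genes (rows), red above and blue below the mean. LSD1-mKO Gas replicate 3 is red for *Gadd45a* (1.73), *Ampd3* (1.24) and *Dusp4* (2.43), and WT Sol replicate 2 is red for *Gadd45b* (1.49) and *Gadd45g* (1.75).

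LSD1-mKO Gas replicate 3 set much of the Gas spread of *Gadd45a*, *Ampd3* and *Dusp4*. It held the highest value of its group for these 3 and for *Gadd45b* and *Gadd45g*, and the lowest for *Ampd1* and *Dusp1*. Its neutrophil markers summed to 135 CPM, against 3.79 to 11.6 CPM in the other LSD1-mKO Gas libraries and 2.30 to 51.3 CPM in WT Gas, where the 51.3 is replicate 3. The part of those cells in its values was not tested. Up to 2 of the 6 neutrophil markers had no read in a library. Macrophage markers in the same library summed to 198 CPM, the highest of LSD1-mKO Gas, where the others ranged from 139 to 187 CPM. Of 7 red blood cell markers, 6 had no read in any library, so this list is a weak measure of blood content. The other marker came to 28.1 CPM in this library and to between 12.6 and 19.6 CPM in the others of the group. In Sol, LSD1-mKO replicate 3 had 2.60 CPM of neutrophil markers, within the range of its group (1.78 to 8.01), and there too *Dusp4* and the *Ampd3* to *Ampd1* ratio were highest and *Ampd1* lowest of the group. In LSD1-mKO, libraries of the same number in Gas and Sol deviated together (r from 0.30 to 0.46 for the 5 numbers).

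For each gene, the most similar pattern was sought among 10766 genes with at least 50 reads per library on average, by the same r over 16 libraries and with no p. The closest were *Slc25a38* (0.86), *Ccnl2* (0.85) and *Txnip* (0.85) for *Gadd45a*. For *Gadd45b* they were *Trim11* (0.91), *Zfp956* (0.89) and *Abtb1* (0.88), and for *Gadd45g* *Tmem88* (0.88), *Zfpl1* (0.87) and *Cdk2ap2* (0.87). *Igfbp3* (0.91) and *Snx24* (0.86) were among the closest to *Cdkn1a*. *Pde4a* (0.95), *Rassf3* (0.92) and *Trp53inp2* (0.92) came closest to *Ampd1*, and *Pxk* (0.93), *Slc43a2* (0.92) and *Scaf8* (0.90) to *Ampd3*. The closest to *Dusp1* were *Atp1b1* (0.93), *Pafah2* (0.87) and *Tmem204* (0.86), and to *Dusp4* *Abhd4* (0.96), *Rere* (0.95) and *Man1a2* (0.94). With the 2 libraries farthest from the median of the gene left out, the r of these pairs ranged from 0.71 to 0.91. None of the 8 genes was among the closest of another.

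The wider pathways were described by lists. Of the 9 tested MAP kinase phosphatase genes, *Dusp1* and *Dusp4* included, 0 were called in either muscle. The only one with an unadjusted p under 0.05 in Gas was *Dusp10* (-1.11 ± 0.47, adjusted p = 0.541), a phosphatase of p38 and JNK. In Sol there were 2, *Dusp2* (0.81 ± 0.35, adjusted p = 0.292, named after its value was seen) and *Dusp6* (0.76 ± 0.22, adjusted p = 0.130), a phosphatase of ERK that was at 15.4 ± 1.72 CPM in WT and 26.4 ± 7.61 CPM in LSD1-mKO without overlap. *Dusp7*, another ERK phosphatase, had -0.52 ± 0.25 in Sol (adjusted p = 0.351). Of the 18 tested MAP kinases and their upstream kinases, 0 were called in either muscle, with 1 at an unadjusted p under 0.05 in Gas and 2 in Sol. Those were *Map3k5*, the gene of the stress kinase ASK1, in Gas (0.52 ± 0.22, adjusted p = 0.541), and in Sol *Mapk12*, the muscle p38 gamma (0.37 ± 0.15, adjusted p = 0.258), and the JNK kinase gene *Map2k7* (-0.29 ± 0.13, adjusted p = 0.307). *Map2k2*, the gene of an ERK kinase, had -0.60 ± 0.28 in Gas (adjusted p = 0.555). The median log2 fold change of the phosphatases was 0.02 in Gas and 0.23 in Sol, and that of the kinases was -0.095 and -0.0035.

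Among the CDK inhibitors, 6 tested with *Cdkn1a*, 0 were called in either muscle. At an unadjusted p under 0.05 there were none in Gas and only *Cdkn1a* in Sol, and the median was -0.068 and -0.30. *Cdkn2d* (p19) had -0.49 ± 0.25 (adjusted p = 0.555) and *Cdkn1c* (p57) 0.34 ± 0.27 (adjusted p = 0.658) in Gas, and *Cdkn1c* had -0.44 ± 0.22 in Sol (adjusted p = 0.379). Of the p53 target genes, 0 of 18 were called in Gas and 0 of 19 in Sol, with 1 and 3 at an unadjusted p under 0.05 and a median of 0.15 and -0.01. In Gas, *Polk*, a gene of a DNA polymerase that bypasses lesions, was at 14.7 ± 3.58 CPM in WT and 5.75 ± 2.47 CPM in LSD1-mKO without overlap (-1.36 ± 0.33, adjusted p = 0.310), and the sestrin gene *Sesn1* had 0.59 ± 0.33 (adjusted p = 0.572). In Sol, *Zmat3*, the gene of an RNA-binding protein, was at 15.2 ± 3.14 CPM in WT and 33.0 ± 11.9 CPM in LSD1-mKO without overlap (1.11 ± 0.28, adjusted p = 0.0895). The others with an unadjusted p under 0.05 in Sol were *Cdkn1a* and, named after its value was seen, *Eda2r* (1.25 ± 0.50, adjusted p = 0.256), the gene of a receptor. Of the mitotic genes, 0 of 7 were called in Gas and 0 of 8 in Sol, with 0 and 3 at an unadjusted p under 0.05. The 3, named after their values were seen, were *Mki67* (2.48 ± 0.54, adjusted p = 0.0585), *Top2a* (2.27 ± 0.76, adjusted p = 0.189) and *Ccne1* (1.40 ± 0.52, adjusted p = 0.228), with means of 15.5 to 47.8 reads per library. The median log2 fold change of the list was 1.03 in Gas (6 of 7 positive) and 0.98 in Sol (5 of 8). The 10 mitotic genes summed to 96.2 CPM in LSD1-mKO Gas replicate 4, with 30.6 to 48.2 CPM in the other Gas libraries, and to 69.2 CPM in LSD1-mKO Sol replicate 1, with 35.7 to 44.7 CPM in the other Sol libraries. For the replication gene *Pcna* the Gas value was -0.17 ± 0.18 (adjusted p = 0.732) and the Sol value -0.28 ± 0.13 (adjusted p = 0.343), and the cyclin gene *Ccnd1* had 0.22 ± 0.34 (adjusted p = 0.820) and 0.56 ± 0.47 (adjusted p = 0.626).

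Of the 111 genes of these pathway lists tested in Sol, 1 was called (0.901%, beside 0.967% of all genes), a share near the background. It was 1 of the 23 enzymes of AMP and purine nucleotides, *Ampd1* and *Ampd3* included. *Impdh1*, the gene of an enzyme on the way from IMP to guanine nucleotides, rose in LSD1-mKO Sol by 0.83 ± 0.16 (adjusted p = 0.0356). Its level was 12.6, 12.8 and 13.9 CPM in WT Sol and 24.6, 23.3, 29.3, 20.5 and 19.9 CPM in LSD1-mKO Sol, with no overlap. The call was lost without any 1 of the 3 WT Sol libraries or of replicates 1 to 3 of LSD1-mKO Sol, and with all 16 libraries in 1 fit. In Gas (0.61 ± 0.24, adjusted p = 0.525) it was at 13.1 ± 4.50 CPM in WT (SD, n = 3) and from 17.1 to 22.2 CPM in LSD1-mKO, also with no overlap. *Hprt*, of purine salvage, was at 41.3 ± 4.76 CPM in WT Sol and 61.1 ± 4.86 CPM in LSD1-mKO Sol (0.55 ± 0.13, adjusted p = 0.0725). In Gas 0 of 23 were called. At an unadjusted p under 0.05, 3 were higher and 1 lower in LSD1-mKO Gas, and 6 were higher and 3 lower in LSD1-mKO Sol. The median log2 fold change of the list was 0.13 in Gas and -0.02 in Sol.

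Of 11 regulators of these genes, such as transcription factors known to act on them, 0 were called in either muscle, with 0 at an unadjusted p under 0.05 in Gas and 5 in Sol (1 higher and 4 lower in LSD1-mKO), and a median of 0.082 and -0.14. Of the 5, *Myog* (1.67 ± 0.62, adjusted p = 0.231), *Foxo1* (-0.82 ± 0.31, adjusted p = 0.237) and *Klf15* (-0.60 ± 0.24, adjusted p = 0.265) in Sol were named after their values were seen. *Atf4*, the activator of *Gadd45a*, was at 325 ± 56.7 CPM in WT Sol and 226 ± 23.4 CPM in LSD1-mKO Sol without overlap (-0.54 ± 0.16, adjusted p = 0.129), and *Cebpd* had -0.99 ± 0.35 in Sol (adjusted p = 0.217). *Myog*, the gene of the denervation-responsive factor myogenin, was at 6.75, 9.40 and 6.35 CPM in WT Gas and at 80.9, 22.6, 7.95, 5.24 and 11.2 CPM in LSD1-mKO Gas (1.78 ± 0.83, adjusted p = 0.555). Its highest library was replicate 1, also in LSD1-mKO Sol (48.6 CPM), and not replicate 3, where *Gadd45a*, *Ampd3* and *Dusp4* were highest in Gas. *Hdac4*, of a histone deacetylase in the same response, had 0.81 ± 0.42 in Gas (adjusted p = 0.555). Of 19 immediate-early genes, 0 were called in either muscle, with 0 at an unadjusted p under 0.05 in Gas and 1 in Sol, and a median of 0.083 and -0.059. That was *Zfp36*, of a protein that destabilizes mRNAs, in Sol (-0.48 ± 0.14, adjusted p = 0.135). *Btg2* had -0.43 ± 0.20 there (adjusted p = 0.337), and in Gas *Ier2* had -0.54 ± 0.25 (adjusted p = 0.555) and *Jun* -0.41 ± 0.23 (adjusted p = 0.572).

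Other tools called more of these list genes, and more of all genes. Over all genes, DESeq2 called 132 in Gas and 605 in Sol, and the exact test called 104 and 560. In Gas, DESeq2 called 1 p53 target and 1 purine enzyme, *Ampd3*, and the exact test called 1 p53 target. In Sol, DESeq2 called 1 phosphatase, 1 p53 target, 4 purine enzymes, 1 regulator and 2 mitotic genes, and the exact test called 1, 1, 4, 0 and 1 of these lists. Both called 0 MAP kinases, CDK inhibitors and immediate-early genes in either muscle.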

How the data were processed

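Poly(A) RNA libraries were sequenced as 75 bp single-end reads. The authors aligned reads to mm10 with STAR, per the labels, and per the file headers counted them over exons with featureCounts 1.5.2. The deposited values are raw read counts for each gene, not normalized, and the header names no strand option. The authors' deposited tables of comparisons hold edgeR results by gene (log2 fold changes, average log2 CPM, p-values and false discovery rates) and were not used. Groups came from the genotype and muscle of the labels. Of the count columns, 0 belonged to other samples.

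The tests used edgeR 4.0.16, run in R 4.3.3 beside limma 3.58.1. Genes were kept by filterByExpr (minimum count 10), libraries were scaled by TMM, and groups were compared by the two-sided quasi-likelihood F-test with Benjamini-Hochberg adjustment over all genes tested (threshold 0.05). LSD1-mKO was compared with WT within each muscle. The muscles and the difference of the genotype effects were fitted over all 16 libraries. Standard errors were taken as the size of the log2 fold change over the root of the F statistic. Printed CPM values use TMM sizes over the 16 libraries and are mean ± SD, so a ratio of their means can differ from the fitted fold. Depth limits low genes: 3 reads came to between 0.122 and 0.296 CPM, and this limit covers counting error only. Exon lengths and positions are from GENCODE M21 (GRCm38), as the union of exons of protein-coding transcripts, which may differ from the annotation used for counting.

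The genes and lists were chosen with earlier results of these data known. Always named were the 8 genes and *Kdm1a*. From each list the called genes and, for each muscle, the 2 genes with the smallest unadjusted p among those with at least 50 reads per library on average were named. For likeness the 3 genes with the highest r were named for each of the 8, except 1 gene that is not reported here. Alternatives were RLE scaling, no filter, DESeq2 1.42.0, the edgeR exact test, the replicate number as a block, the ribosomal protein level (mean of 79 genes) as a covariate, all 16 libraries or only 1 genotype in the fit, and each library left out. Leaving out the 3 high ribosomal protein libraries together was added after seeing the data. Pairing of the *Ampd3* to *Ampd1* ratio across the muscles was also added then. The scripts were tested on simulated data.

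Pairing was checked by the correlation of deviations from the group means. In LSD1-mKO the Gas and Sol libraries of the same number had r from 0.303 to 0.457 in all 5 pairs (mean 0.392, against -0.0968 for other numbers). These libraries thus deviated together by number, though the labels name no shared mouse. In WT the 3 values ran from -0.639 to 0.191, which shows no pairing and cannot exclude it. There WT Gas replicate 3 and WT Sol replicate 2, both high in ribosomal protein genes, had an r of 0.531. The main tests took all libraries as independent, and a block across muscles was an alternative.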

Additional observations from a re-analysis of the deposited data

Results flagged for a closer look

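In LSD1-mKO Gas, 4 measures had 1 library far from the other 4, and in each it was replicate 3. The gap to the nearest library was 0.714 of the range of the group for *Gadd45a* (326 CPM, next 121), 0.738 for *Ampd3* (109, next 48.6), 0.898 for *Dusp4* (35.4, next 5.72) and 0.944 for *Ampd3* reads per 100 *Ampd1* reads (23.3, next 5.22). The critical value for 5 libraries is 0.71. The gaps were taken without logs, and the critical value assumes values with a normal distribution, which CPM need not have. Only under that assumption would chance give about 0.9 such gaps in the 18 groups of values examined. On log2 CPM the 3 genes had smaller gaps, each under 0.71 of the range. Replicate 3 was at 8.35 for *Gadd45a* (next 6.92, lowest 5.27), 6.77 for *Ampd3* (next 5.61, lowest 4.77) and 5.15 for *Dusp4* (next 2.54, lowest 1.30). These 4 measures share a library, and 2 of them share the *Ampd3* reads.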

How the results depend on the processing

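Of 264 values of the 8 genes under other settings, 253 kept their direction and their side of the threshold, and of 512 with 1 library left out 475 did. For the muscle comparisons the 512 include leaving out libraries of the other genotype. Those share the fit but are not compared, so they can move the value little. With 1 library left out, the count of the 8 genes called stayed at 0 for both genotype effects and their difference and ranged from 1 to 5 for the muscles in WT and from 3 to 6 in LSD1-mKO. It was 5 in WT without WT Sol replicate 2 and 1 without WT Sol replicate 3. In LSD1-mKO it was 3 without replicate 1 or 2 of LSD1-mKO Sol. With DESeq2 the count for the genotype effect in Gas was 1 (*Ampd3*). With the 3 high ribosomal protein libraries left out, chosen after seeing the data, the count for the muscles in WT was 5 (*Gadd45b* -1.84 and *Gadd45g* -2.04 were added), the genotype effect in Sol was 0.63 for *Gadd45a* and 0.35 for *Gadd45g*, and the difference of the effects was 0.70 for *Gadd45b*. The ribosomal protein covariate brought *Gadd45a* in Sol to 0.063.

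Directions that turned with 1 library left out gave these ranges. The genotype effect in Gas ran from -0.063 to 0.30 for *Cdkn1a* and from -0.72 to 0.0041 for *Dusp1*. In Sol it ran from -0.37 to 0.63 for *Gadd45a*, where it also turned to 0.051 and 0.074, from -1.51 to 0.35 for *Gadd45g* and from -0.0065 to 0.45 for *Dusp4*. The difference of the effects ran from -0.93 to 0.64 for *Gadd45b* and from -1.79 to 0.089 for *Gadd45g*. The muscle difference ran from -0.16 to 0.80 for *Dusp1* in WT, and in LSD1-mKO from -0.24 to 0.028 for *Cdkn1a* and from -1.49 to 0.039 for *Dusp4*. The cause was not tested.

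Within a muscle, WT and LSD1-mKO share only replicate numbers: the correlations of same-numbered libraries were -0.205 to 0.416 (Gas) and -0.0035 to 0.186 (Sol), so a block tests no shared source. With the replicate block the count for Sol was 1 (*Ampd3*, 0.83, adjusted p = 0.0397). With the replicate block across muscles the difference of the effects was 0.0024 for *Gadd45b*, and the block changed no call of the muscle comparisons.

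Over all genes, 4 calls in Gas became 132 with DESeq2, 104 with the exact test, 62 with all 16 libraries in 1 fit and 10 without a filter. The 129 calls in Sol became 605 with DESeq2, 560 with the exact test, 412 with the replicate block, 336 without a filter, 295 with the ribosomal protein covariate and 23 with the 3 libraries left out. The 0 calls for the difference became 21 with DESeq2 and 1 with the block across muscles, and the 2337 calls between muscles in WT became 1011 with only WT libraries. With 1 library left out these counts ranged from 1 to 7, 11 to 228, 0 to 1 and 1132 to 2839. Low counts limit *Dusp4* most (18 reads in its lowest library).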
